A study of Mus musculus with 15 samples.

Results

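The genes followed here are 10 transcription factor genes used in heart valve biology: Sox9, Twist1, Msx1, Msx2, Tbx20, Snai1, Foxc1, Zeb2, Nfatc1 and Meox1. They were chosen by name, with earlier results of these data known. They are 10 of the 16809 genes in a table of unique molecular identifier (UMI) counts. In it each captured RNA molecule is counted once. The table comes from Drop-seq, a droplet method that binds messenger RNA of individual cells to beads with a barcode, run on E14.5 mouse hearts. It holds 15 libraries, all of strain background C57BL6/N. The study set homozygous Adamts19 knockout (KO) hearts against wild-type (WT) hearts. Of the 8 KO libraries, replicates 5 to 8 carry the allele labelled tm4b and come from 1 litter, and replicates 1 to 4 carry the allele labelled tm4a and come from 2 litters. The 7 WT libraries come from 4 other litters. No litter holds both genotypes or both alleles, so genotype and litter, and allele and litter, cannot be told apart. All KO libraries share 1 flow cell, and WT replicate 5 is the single WT library sequenced on it. Sources used here do not give the part of Adamts19 that each allele removes or the number of embryos in a library. The p-values therefore measure the spread between these libraries.

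Heart valves grow from cushions, swellings that fill with mesenchymal cells when endocardial cells lose their contacts and move inward. Snai1, Twist1 and Zeb2 encode repressors and regulators known for driving such transitions, and SNAI1 and ZEB2 are textbook repressors of the cadherin that holds epithelial cells together. Sox9 encodes a regulator of cartilage that cushion mesenchyme also needs, Tbx20 a T-box factor of cushion cells and of heart muscle, and Msx1 and Msx2 a pair of related homeobox factors of the cushions. Meox1 is a homeobox gene best known from the somites. Nfatc1 marks valve-forming endocardium and Foxc1 encodes a forkhead factor of endothelial and mesenchymal lineages.

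In the GRCm38 (mm10) assembly with GENCODE vM21 names, Sox9 spans chr11:112782224-112787760 on the plus strand, Twist1 chr12:33957671-33959829 plus, Msx1 chr5:37820485-37824583 minus, Msx2 chr13:53466884-53473074 minus, and Tbx20 chr9:24718138-24774303 minus. Snai1 spans chr2:167538195-167542814 plus, Foxc1 chr13:31806633-31812476 plus, Zeb2 chr2:44983632-45117395 minus and Meox1 chr11:101877510-101894374 minus. Zeb2, Nfatc1 and Meox1 each have an annotated antisense gene inside them. None of these partners reaches the last kilobase of its host, and whether they have rows of their own in the table was not checked. The strand setting of the counting is also not given, so reads of these 3 genes and of their partners cannot be told apart.

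The stretches shown next are the 250 bases before annotated start sites of Snai1, Msx1, Twist1 and Zeb2, from RefSeq on GRCm38.p6, each read 5′ to 3′ along the gene. They are shown because each holds the letters bound by a family in the list, marked in capitals. For Snai1 these letters are also those of its own family. Windows of 300 bases, with 250 before and 50 after the start, were found for 7 of the 10 genes and searched on both strands. The SNAI and ZEB E-box, CACCTG or CAGGTG, is in 20.2% of all 32851 such windows. The SOX motif, AACAAT or ATTGTT, is in 10.7% of them, and an MSX-type homeobox motif, TAATTG or CAATTA, in 8%. The TWIST-type E-box CATATG and the FOX motif GTAAACA or TGTTTAC are in 3.91% and 3.65%. No motif overlapped another in the windows shown, and the windows of Msx2, Tbx20 and Foxc1 held none of the 5 motifs. A match describes the letters only. The Snai1 and Msx1 stretches hold the E-box, the Twist1 stretch the SOX motif, and the Zeb2 stretch, at 1 of its 4 annotated start sites, the MSX-type motif.
Snai1, chr2:167537945-167538194, plus strand: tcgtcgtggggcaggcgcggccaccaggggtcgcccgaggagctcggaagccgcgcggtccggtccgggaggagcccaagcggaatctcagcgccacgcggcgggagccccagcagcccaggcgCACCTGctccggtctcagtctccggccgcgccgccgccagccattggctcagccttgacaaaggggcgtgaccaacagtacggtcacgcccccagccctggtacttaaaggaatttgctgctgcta
Msx1, chr5:37824586-37824835, minus strand: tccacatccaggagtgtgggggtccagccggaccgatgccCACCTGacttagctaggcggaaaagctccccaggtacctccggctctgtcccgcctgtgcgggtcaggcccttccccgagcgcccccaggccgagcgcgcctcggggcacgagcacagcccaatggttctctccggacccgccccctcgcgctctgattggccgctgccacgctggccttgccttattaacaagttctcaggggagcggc
Twist1, chr12:33957421-33957670, plus strand: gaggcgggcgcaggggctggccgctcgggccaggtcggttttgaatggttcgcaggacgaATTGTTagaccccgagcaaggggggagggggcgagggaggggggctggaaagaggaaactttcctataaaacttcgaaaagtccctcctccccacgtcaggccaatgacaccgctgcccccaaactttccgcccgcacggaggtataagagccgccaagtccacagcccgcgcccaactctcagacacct
Zeb2, chr2:45117443-45117692, minus strand: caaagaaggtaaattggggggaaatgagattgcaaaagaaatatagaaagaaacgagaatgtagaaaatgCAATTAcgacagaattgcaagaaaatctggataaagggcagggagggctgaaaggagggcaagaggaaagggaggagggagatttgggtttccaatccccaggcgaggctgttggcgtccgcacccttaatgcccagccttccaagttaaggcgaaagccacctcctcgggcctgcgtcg

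The 15 libraries held 5477109 to 11340443 UMIs each, and 50771 cells passed the filters, 28390 in KO and 22381 in WT libraries. Of 55053 barcode sequences, 87 occurred in more than 1 library. Adamts19 itself averaged 6.61 ± 1.29 CPM (UMIs scaled to a common library total) over all cells in KO libraries and 29.4 ± 12.4 CPM in WT libraries (SD, n = 8 and 7). The KO libraries lay between 5.28 and 8.60 CPM and the WT libraries between 15.8 and 49.9 CPM, without overlap. UMIs come from transcript 3′ ends, so those left in KO libraries say nothing of a deleted part that lies elsewhere. LacZ, a bacterial reporter listed in the table, had 5.40 to 91.6 CPM in KO libraries and 0 UMIs in all 7 WT libraries, a count under which up to 0.0533 CPM over WT could go unseen. Cells were grouped without the 10 genes, and 9 classes named from marker genes were kept. The valve interstitial-like class, 2339 KO and 2016 WT cells in 1 cluster, was led by Cthrc1, Col9a1, Papss2, Col9a3 and Car3, with 4 of its own and 2 fibroblast markers among its 10 leading genes. Clusters left unnamed held 6.67% of the cells. One of these, of dividing mesenchymal cells, made up 2.35 ± 0.494% of KO and 2.44 ± 0.87% of WT cells. Another, with blood cell genes, made up 2.49 ± 1.45% of KO and 6.39 ± 5.43% of WT cells, and 17.2% in 1 WT library.

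By level per class, 7 of the 10 genes were highest in valve interstitial-like cells, while Foxc1 was highest in endocardial-like, Nfatc1 in valve endothelial-like and Zeb2 in macrophage-like cells. The name valve mesenchyme factors therefore fits 7 of them by level. Class levels are descriptions of the same libraries and carry no test. Values are CPM of all UMIs of a class in a library, and order is within a gene.

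Among the transition factors, Twist1, a basic helix-loop-helix factor, had its level in valve interstitial-like cells at 158 ± 28.4 CPM in KO and 188 ± 109 CPM in WT libraries. The KO libraries ran from 120 to 198 CPM with a median of 153, and the WT libraries from 95.6 to 386 CPM with a median of 150. Fibroblast-like cells followed at 42.8 CPM in KO and 49.8 CPM in WT libraries, below the valve interstitial level in all 15 libraries. The order among mural-like, valve endothelial-like and epicardial-like cells, 25.4 to 39.2 CPM over both genotypes, spanned less than the spread between libraries. Snai1, a zinc finger repressor, was less restricted. It averaged 98.0 ± 28.9 CPM (56.9 to 138, median 94.4) in KO and 88.3 ± 28.5 CPM (45.7 to 122, median 98.3) in WT valve interstitial-like cells. Fibroblast-like cells had 75.7 ± 8.38 CPM of Snai1 in KO and 62.9 ± 10.1 CPM in WT libraries, below the valve interstitial level in 5 of 8 KO and 6 of 7 WT libraries. Through their number, fibroblast-like cells held the most Snai1 UMIs, 37.1% in KO and 34.4% in WT libraries.

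Zeb2, a zinc finger and homeodomain repressor, was broad, with class means of at least 33.6 CPM in all 9 classes of both genotypes. Macrophage-like cells had 371 ± 124 CPM of Zeb2 in KO and 410 ± 87.6 CPM in WT libraries. Fibroblast-like cells followed at 232 ± 64.6 and 222 ± 83.5 CPM, below macrophage-like cells in all 15 libraries. Endocardial-like cells (142 in KO, 141 in WT), mural-like cells (135 in KO, 138 in WT) and valve interstitial-like cells (145 in KO, 123 in WT) differed by less than their spread. Zeb2 was lower in cardiomyocyte-like cells, at 48.8 CPM in KO and 43.0 CPM in WT libraries.

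Of the mesenchymal factors, Sox9 and Meox1 stood far above their next class in valve interstitial-like cells. Sox9, the cartilage regulator, had 408 ± 114 CPM in KO valve interstitial-like cells, at 475, 578, 396 and 494 CPM in tm4b and 270, 465, 274 and 308 CPM in tm4a libraries. WT libraries had 392 ± 78.1 CPM, at 500, 459, 374, 355, 296, 313 and 449 CPM, so the genotypes overlapped. Fibroblast-like cells had 105 ± 21.4 CPM of Sox9 in KO and 104 ± 31.5 CPM in WT libraries, lower in all 15, and mural-like cells 124 ± 66.9 CPM in KO and 83.0 ± 33 CPM in WT libraries. The order of these classes was not steady: fibroblast-like cells were above mural-like cells in 4 of 8 KO and 6 of 7 WT libraries. Endothelial classes and cardiomyocyte-like cells had 2.25 to 12.04 CPM of Sox9 over both genotypes. Meox1, the somite homeobox gene, had 572 ± 108 CPM (332 to 700, median 592) in KO and 460 ± 132 CPM (238 to 597, median 475) in WT valve interstitial-like cells. Its next class was again fibroblast-like cells, at 113 ± 15.3 CPM in KO and 84.2 ± 24.5 CPM in WT libraries, lower in all 15.

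Tbx20 was shared between valve and muscle. Valve interstitial-like cells had 893 ± 95 CPM of Tbx20 in KO libraries (867, 991, 1005 and 779 in tm4b, and 751, 934.9, 860 and 957 in tm4a). WT libraries had 852 ± 376 CPM (1460, 1030, 1159, 752, 549, 424 and 592), so the WT values reached both above and below every KO value. Fibroblast-like cells had 368 ± 38.5 CPM in KO and 397 ± 138 CPM in WT libraries, and cardiomyocyte-like cells 222 ± 22.9 and 243 ± 81.7 CPM, an order that held in all 15 libraries. By number, cardiomyocyte-like cells held 47% of Tbx20 UMIs in KO and 47.2% in WT libraries. Msx1 had 126 ± 37.6 CPM (55.8 to 177, median 122) in KO and 121 ± 64 CPM (39.2 to 239, median 120) in WT valve interstitial-like cells. Unlike Sox9, Meox1 and Tbx20, Msx1 was next highest in endothelial classes. Valve endothelial-like cells had 84.6 ± 58.2 CPM in KO and 78.5 ± 39.9 CPM in WT libraries, and vascular endothelial-like cells 61.0 ± 19.2 and 51.5 ± 18.5 CPM, while endocardial-like cells were lower than both classes. Msx2, its close relative, was sparse, with 450 UMIs in all. Msx2 had 20.1 ± 11.5 CPM (4.74 to 37.1, median 18.5) in KO and 20.6 ± 9.94 CPM (9.06 to 38.6, median 17.9) in WT valve interstitial-like cells, from 80 and 70 UMIs, and 3.33 and 3.23 CPM in cardiomyocyte-like cells, the next class. By number, cardiomyocyte-like cells held the most Msx2 UMIs, 48.4% in KO and 43.7% in WT libraries. Valve interstitial-like cells held 29.7% in KO and 34.4% in WT libraries.

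On the endothelial side, Foxc1, the forkhead factor, had 277 ± 66.2 CPM in KO endocardial-like cells, at 294, 351, 269 and 380 CPM in tm4b and 182, 219, 284 and 235 CPM in tm4a libraries. WT libraries had 176 ± 80.3 CPM, at 230, 147, 324, 187, 85.4, 120 and 138 CPM, and WT replicates 1, 3 and 4 lay within the KO range. Valve endothelial-like cells followed with 187 ± 65.5 CPM in KO and 133 ± 68 CPM in WT libraries, and valve interstitial-like cells had 51.7 ± 30.8 and 33.6 ± 29 CPM. Nfatc1, the marker of valve-forming endocardium, had 178 ± 38.2 CPM (142 to 242, median 164) in KO and 177 ± 41.9 CPM (118 to 238, median 166) in WT valve endothelial-like cells. Endocardial-like cells had 77.7 ± 20.3 CPM of Nfatc1 in KO and 84.0 ± 27.1 CPM in WT libraries, and valve interstitial-like cells 61.9 ± 18.4 and 82.1 ± 37 CPM. Endocardial-like cells were above valve interstitial-like cells in 6 of 8 KO and 4 of 7 WT libraries. The dividing mesenchymal cluster left unnamed had 213 ± 120 CPM of Sox9, 553 ± 161 of Tbx20 and 276 ± 86.9 of Meox1 in KO libraries, and 193 ± 51.2, 457 ± 196 and 227 ± 59.1 CPM in WT libraries.

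**Figure D1:**
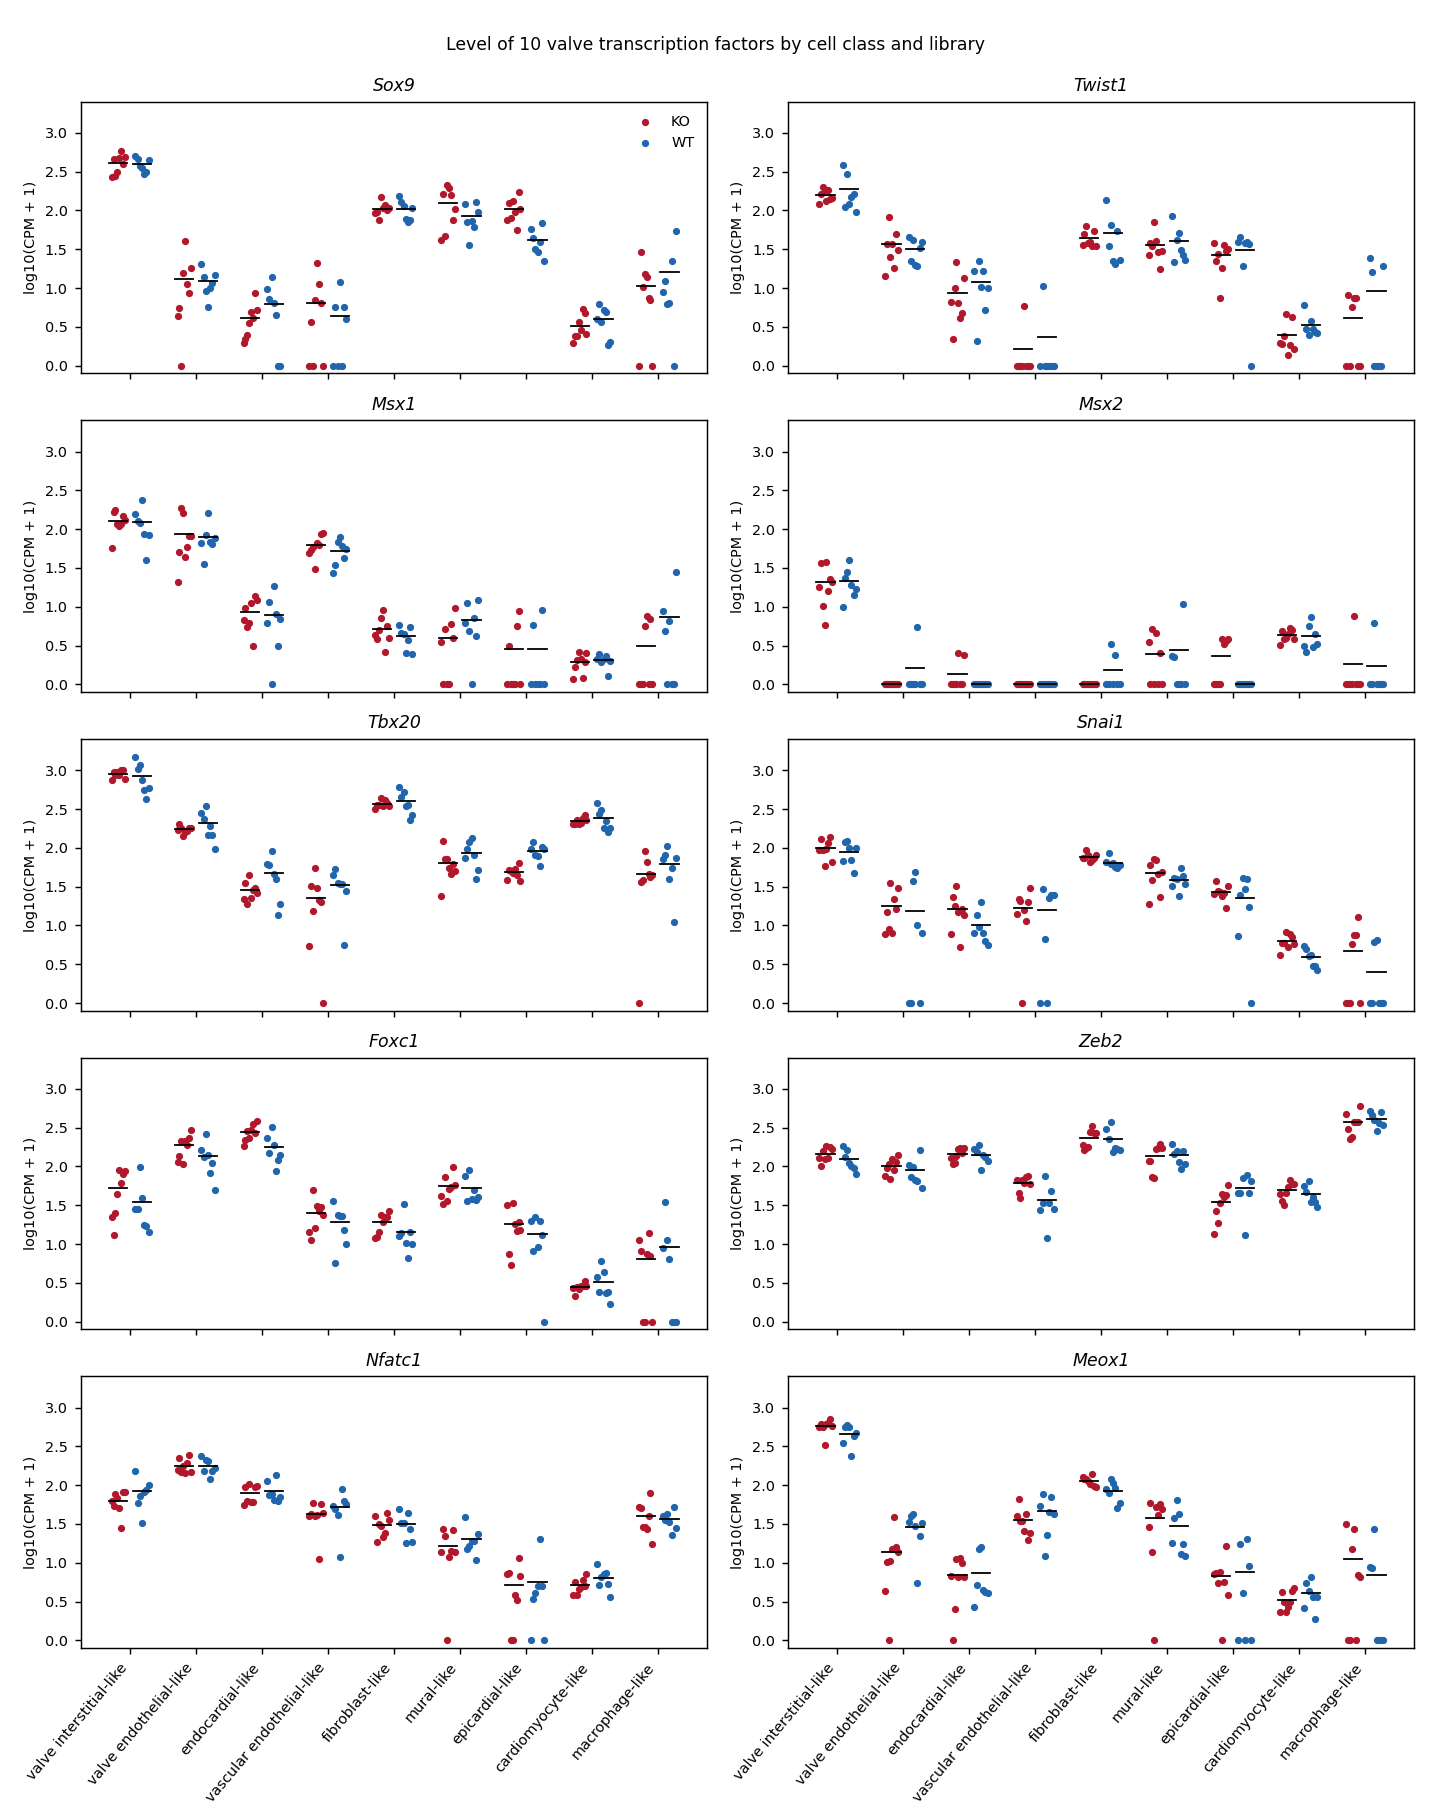
The level of each of the 10 genes, as log10(CPM + 1), is plotted for 9 cell classes, with 1 point per library (KO in red, left; WT in blue, right) and a bar at the group mean. Sox9, Twist1, Msx1, Msx2, Tbx20, Snai1 and Meox1 are highest in valve interstitial-like cells, Foxc1 in endocardial-like, Nfatc1 in valve endothelial-like and Zeb2 in macrophage-like cells.

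In single valve interstitial-like cells, at least 1 UMI of Tbx20 was seen in 62.4% of KO and 59.7% of WT cells. The share was 41.5% in KO and 37.1% in WT cells for Meox1, and 35.7% and 34.9% for Sox9. These cells had fewer UMIs in KO libraries, with a median of 1210 in KO and 1445 in WT cells. With each cell thinned to 1000 UMIs, which left 1392 KO and 1361 WT cells, Sox9 was seen in 30% of KO and 26.8% of WT cells. In endocardial-like cells, where Sox9 was near background, it was seen in 0.594% of KO and 1.03% of WT cells at median depths of 1358 and 1803 UMIs. Among thinned valve interstitial-like cells, 57.5% of KO and 52.8% of WT cells held UMIs of at least 2 of the 10 genes, and over libraries the mean was 56.2 ± 6.96% in KO and 52.0 ± 13.7% in WT. The same share was 18.8% in KO and 20.3% in WT fibroblast-like cells, and 1.47% and 1.76% in cardiomyocyte-like cells. Tbx20 and Meox1 shared 305 KO cells, where unrelated detection would give 290, and 242 WT cells, where it would give 218. In WT libraries, valve interstitial-like cells with an Adamts19 UMI (181 cells) held Msx2 in 3.87%, Tbx20 in 60.8%, Twist1 in 20.4%, Sox9 in 28.2% and Foxc1 in 2.76%. WT cells without one (1180 cells) held them in 1.44%, 51%, 14.9%, 26.6% and 3.22%. In KO libraries, cells with a LacZ UMI (140 cells) held Msx2 in 3.57%, Tbx20 in 54.3%, Twist1 in 18.6%, Sox9 in 32.9% and Foxc1 in 5%. KO cells without one (1252 cells) held them in 1.76%, 55.8%, 11.7%, 29.7% and 5.19%. The Msx2 shares rest on 7 WT cells with an Adamts19 UMI and 5 KO cells with a LacZ UMI. Over libraries these shares averaged 4.91 ± 4.96% in WT and 3.12 ± 4.34% in KO (SD). Cells of a library share it, and all these shares are descriptions.

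The genes whose WT class means ran most like a member's were found by Pearson's r of log2(CPM + 5) over 9 classes, among 10061 genes, and classes share libraries and depth. Msx2 ran with Mstn (r = 0.98), Adamts19 (0.97) and Npy (0.96). Sox9 ran with Clmp, Crispld2 and Lum (0.98 each), and Snai1 with Lzts2 (0.98), Gli3 (0.98) and Fam118a (0.97). Foxc1 ran with its paralog Foxc2 (0.96), Acvr1 (0.96) and Ndst1 (0.95), and Tbx20 with Nkd2 (0.94), Ror2 (0.94) and Ank3 (0.90). Among the members, r was 0.93 for Sox9 and Twist1, 0.91 for Sox9 and Snai1, 0.84 for Twist1 and Snai1, 0.75 for Msx1 and Nfatc1 and 0.72 for Foxc1 and Nfatc1. With KO libraries in place of WT ones, 9 of the 10 members kept at most 1 of their 3 closest genes, so these names rest on small differences.

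KO and WT hearts were compared on UMIs summed per library and class, with edgeR's quasi-likelihood test and Benjamini-Hochberg adjustment over all genes of a class, called at an adjusted p under 0.05. In valve interstitial-like cells none of the 9 members tested was called, where 0.291% of the 7217 genes tested were. No member there had an unadjusted p under 0.05, and DESeq2 called none. Their median log2 fold change was 0.06, with a range of -0.44 (Nfatc1) to 0.61 (Foxc1), against -0.02 over all genes tested. Since genotype and litter cannot be told apart, the intervals measure the spread between these libraries and do not bound a KO effect. They were -0.29 to 0.39 for Sox9, -0.32 to 0.45 for Tbx20, -0.05 to 0.66 for Meox1, -0.27 to 0.57 for Snai1, -0.76 to 0.19 for Twist1 and -0.45 to 0.56 for Msx1 (95%, log2). Wider ones were -0.19 to 1.41 for Foxc1 and -0.94 to 0.05 for Nfatc1, and Zeb2 had -0.12 to 0.56. Msx2 had too few counts to be tested there. In its own highest class, Nfatc1 had a log2 fold change of 0.02 (-0.34 to 0.37) in valve endothelial-like cells and Zeb2 of -0.17 (-0.57 to 0.23) in macrophage-like cells.

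**Figure D2:**
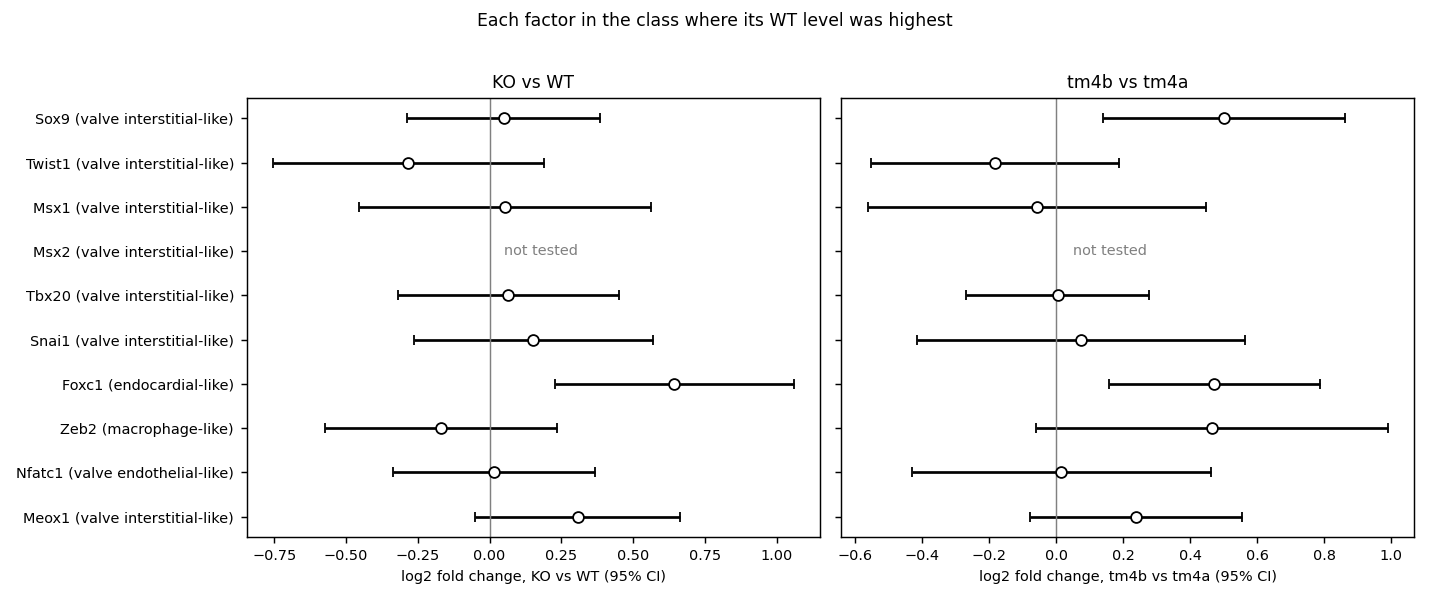
Fitted log2 fold changes of each gene in the class where its WT level was highest, with 95% confidence intervals, for KO against WT (left) and tm4b against tm4a (right); open circles are values with an adjusted p of 0.05 or more. No gene was called in its own highest class in either comparison, and Foxc1 in endocardial-like cells, at 0.64 and 0.47, has intervals above 0 in both.

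Over the 9 classes, 47 member and class pairs were tested and 2 were called, both in epicardial-like cells. There 3 members were tested, and 0.558% of the 4661 genes tested were called. Sox9 was higher and Tbx20 lower in KO than in WT epicardial-like cells, while Zeb2 was not called (log2 fold change -0.42, edgeR adjusted p = 0.625). The epicardium is the sheet of cells that covers the heart. The class held 1114 KO cells, 69 to 205 per library, and 577 WT cells, 26 to 148 per library, and was led by Upk3b and Msln.

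In epicardial-like cells Sox9 had 94.8, 55.4, 172 and 102 CPM in tm4b and 74.0, 125, 79.8 and 131 CPM in tm4a libraries, from 268 KO UMIs. WT libraries had 56.9, 42.7, 30.8, 28.6, 38.2, 69.0 and 21.3 CPM, from 65 UMIs, with 2 UMIs each in WT replicates 5 and 7. The groups overlapped by 1 KO library at 55.4 CPM, below WT values of 56.9 and 69.0 CPM. The mean was 104 ± 37.4 CPM in KO and 41.1 ± 16.8 CPM in WT libraries, a log2 fold change of 1.30 ± 0.27 (SE; 0.75 to 1.85; edgeR adjusted p = 0.0199). With cells thinned to 1000 UMIs, Sox9 was seen in 8.59% of 745 KO and 3.04% of 427 WT cells, and without thinning in 14.9% and 9.01%, at median depths of 1648 and 2067 UMIs.

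Tbx20 moved the other way in the same cells. It had 51.7, 43.9, 62.7 and 36.8 CPM in tm4b and 37.0, 51.0, 48.8 and 45.7 CPM in tm4a libraries, from 122 KO UMIs. WT libraries had 94.9, 116, 80.1, 77.5, 57.2, 101 and 95.7 CPM, from 146 UMIs, and the lowest of these, WT replicate 5, rests on 3 UMIs and is the WT library that shares the KO flow cell. All but 1 KO library lay below every WT library. The mean was 47.2 ± 8.48 CPM in KO and 89.0 ± 19.1 CPM in WT libraries, a log2 fold change of -0.96 ± 0.19 (SE; -1.35 to -0.56; edgeR adjusted p = 0.0188).

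**Figure D3:**
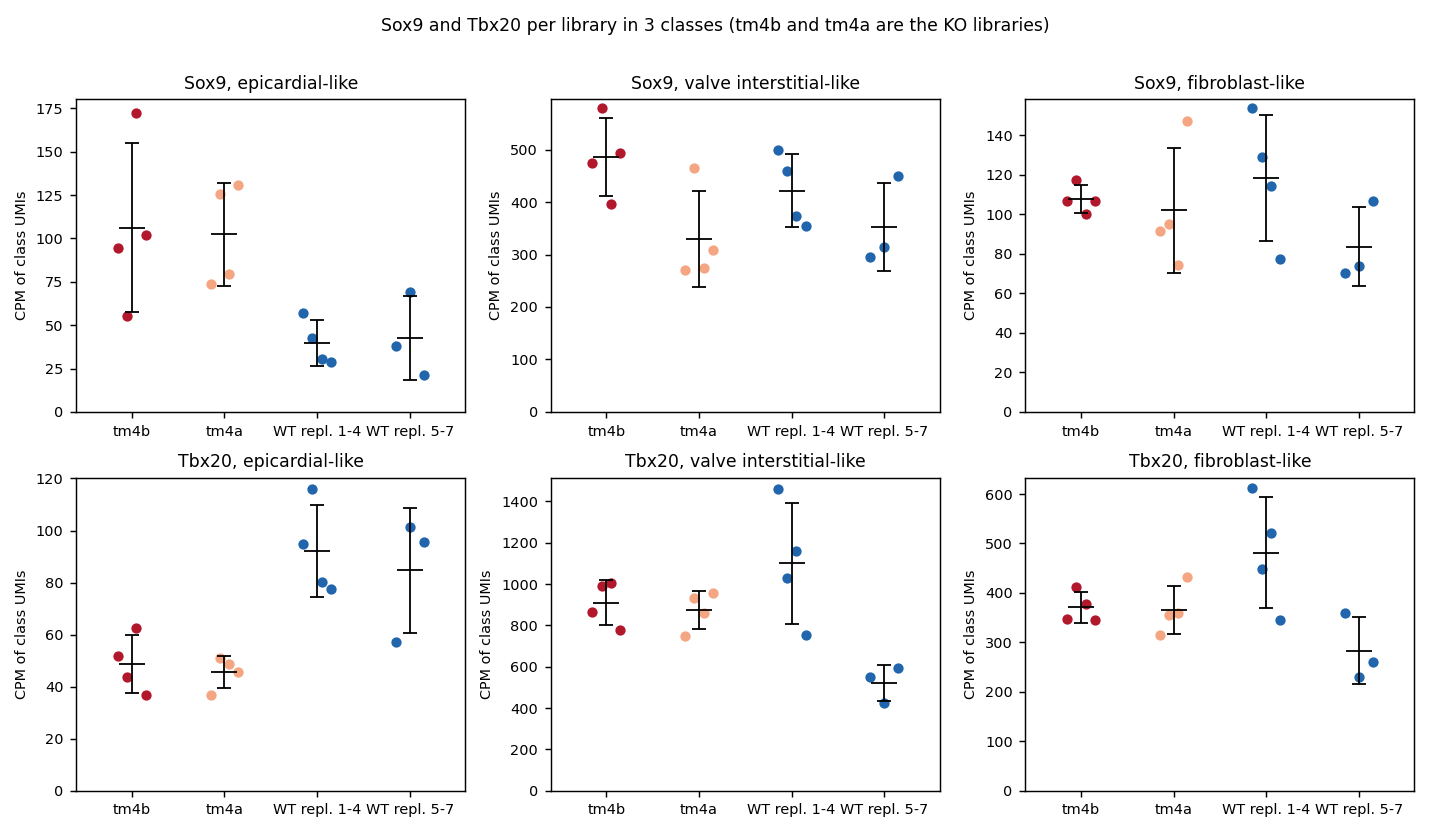
Sox9 (top) and Tbx20 (bottom) in CPM of class UMIs, 1 point per library with mean and SD, in epicardial-like, valve interstitial-like and fibroblast-like cells, for tm4b, tm4a, WT replicates 1 to 4 and WT replicates 5 to 7. In epicardial-like cells Sox9 averages 104 CPM in KO and 41.1 CPM in WT libraries and Tbx20 47.2 and 89.0 CPM, while in valve interstitial-like cells the genotypes overlap.

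The KO minus WT effect was also set beside that of other classes, as a difference of effects on log2(CPM + 5). For Sox9, the effect in epicardial-like cells minus that in valve interstitial-like cells was 1.23, and minus that in fibroblast-like cells 1.21. The per-library difference between classes lay beyond all WT libraries in 5 and 4 of the 8 KO libraries. For Tbx20 these differences of effects were -1.02 and -0.80, beyond all WT libraries in 8 and 7 of the 8 KO libraries. Tbx20 was also lower in KO endocardial-like cells, at 27.6 ± 8.34 CPM in KO and 46.1 ± 26.7 CPM in WT libraries (log2 fold change -0.78, edgeR adjusted p = 0.235). Mural-like cells had 62.1 ± 28.8 and 83.7 ± 33.9 CPM (-0.58, edgeR adjusted p = 0.479). Neither was called, though both had an unadjusted p under 0.05. The epicardial effect was not set beside that of these classes. The gene and class pairs were set side by side because they had been called in the epicardial-like class, so the values are descriptions, and whether the effect differs between classes was not tested independently.

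Markers of other classes were counted in the epicardial-like cells. Fibroblast markers, 7 of 11 tested, had no call and a median log2 fold change of 0.07, and summed to 1.49 to 1.86% of UMIs in KO and 1.14 to 2.23% in WT libraries. Valve interstitial markers, 4 tested, had no call and summed to 0.103 to 0.173% in KO and 0.0851 to 0.156% in WT libraries. Cardiomyocyte markers, which Tbx20 accompanies in muscle, had 1 call of 14 tested, Ttn, lower in KO, with a median of -0.49. They summed to 0.383 to 0.782% in KO and 0.507 to 0.834% in WT libraries, and their part in the lower Tbx20 was not tested. Both calls were lost when flow cell was a covariate (Sox9 1.44, edgeR adjusted p = 0.567; Tbx20 -0.27, adjusted p = 0.925), when libraries of a litter were summed (1.31, 0.0518; -0.93, 0.303), and when WT replicates 1 to 4 were left out (0.99, 0.259; -0.98, 0.111). Sox9 also lost its call without KO replicate 8 (adjusted p = 0.0522) or WT replicate 4 (0.077), and Tbx20 without KO replicate 8 (0.053).

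In the other classes no member was called by edgeR. In all cells together 0 of 10 members were called, by edgeR or by DESeq2, where 0.208% of genes were, and 2 (Snai1, Foxc1) had an unadjusted p under 0.05. In cardiomyocyte-like cells 7 were tested against 1.39% of genes called, in endocardial-like cells 4 against 0.262%, in fibroblast-like cells 8 against 0.117%, and in mural-like cells 7 against 0.166%. In valve endothelial-like cells 5 were tested against 0.0214% of genes called, in vascular endothelial-like cells 3 against 0%, and in macrophage-like cells 1 against 0.0997%. Over the 9 classes 8 pairs, the 2 called ones included, had an unadjusted p under 0.05, and DESeq2 called 2 of 89 pairs. Among those not called, Snai1 in cardiomyocyte-like cells had 3.20 to 7.24 CPM in KO and 1.67 to 4.38 CPM in WT libraries (log2 fold change 0.80, edgeR adjusted p = 0.0701). Foxc1 in endocardial-like cells had a log2 fold change of 0.64 (edgeR adjusted p = 0.158), which became 0.86 (adjusted p = 0.0171) without WT replicate 3, where 138 in place of 22 genes were called. Foxc1 in all cells had 0.57 (edgeR adjusted p = 0.196) and 0.76 (adjusted p = 0.0416) without that library, where 403 in place of 28 genes were called.

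The number of calls moved with the WT libraries used, for all genes as well as for the members. Without WT replicates 1 to 4, 6 member and class pairs were called in place of 2, while the genes called over all cells numbered 975 in place of 28, in cardiomyocyte-like cells 901 in place of 157, in endocardial-like cells 535 in place of 22, in valve interstitial-like cells 334 in place of 21 and in fibroblast-like cells 306 in place of 10. The member pairs were Foxc1 in all cells (1.02, edgeR adjusted p = 0.0251), in endocardial-like (1.21, 0.00108) and in valve interstitial-like cells (1.74, 0.0418), Tbx20 in valve interstitial-like cells (0.72, 0.00991), Meox1 in fibroblast-like cells (0.72, 0.0379) and Snai1 in cardiomyocyte-like cells (1.35, 0.0194), all higher in KO. WT replicates 6 and 7, which stay in, are on other flow cells than the KO libraries too. With flow cell as a covariate the KO effect rests on WT replicate 5 as the single WT library of the KO flow cell.

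The tm4b and tm4a libraries were compared with each other on the same flow cell, by the same edgeR test. Over all cells 3 of 10 members were called, all higher in tm4b, where 15.3% of the 13531 genes tested were called. Zeb2 had 125 ± 9.48 CPM in tm4b and 77.5 ± 5.89 CPM in tm4a libraries (log2 fold change 0.57 ± 0.09, edgeR adjusted p = 0.0048). Sox9 had 56.6, 76.8, 62.8 and 71.9 CPM in tm4b and 30.3, 52.6, 35.5 and 37.5 CPM in tm4a libraries (0.67 ± 0.15, edgeR adjusted p = 0.0138). Sox9 was called between alleles in no single class. Cells of classes with Sox9 were more numerous in tm4b, with 1310 valve interstitial-like cells in tm4b and 1029 in tm4a. Mural-like cells numbered 1068 (109 to 324 per library) in tm4b and 495 (23 to 184) in tm4a. These are numbers, not shares, and tm4b libraries held more barcodes in all, 3468 to 4670 each against 2854 to 4636 in tm4a. As shares of kept cells, fibroblast-like cells were 10.6 to 13.2% in tm4b and 9.96 to 14.1% in tm4a libraries. Mural-like cells were 2.80 to 9.93% in tm4b and 0.891 to 5.485% in tm4a libraries. The part of these cell numbers in the difference was not tested. Foxc1 had 57.7 ± 6.19 CPM in tm4b and 34.9 ± 9.58 CPM in tm4a libraries (0.62 ± 0.14, edgeR adjusted p = 0.0165). The WT libraries, which lay on 5 flow cells, had 94.0 ± 26 CPM of Zeb2, 51.4 ± 15.4 of Sox9 and 30.2 ± 11.9 of Foxc1. The median of the 10 members was 0.18, against 0.01 over all genes, and DESeq2 called 3 members too. No test sets the members' 3 calls apart from this background.

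Over the 9 classes 3 of 47 pairs were called, and 10 pairs, these 3 included, had an unadjusted p under 0.05. Foxc1 was higher in tm4b valve interstitial-like cells, where 9 members were tested and 3.03% of genes were called. It had 89.1, 60.4, 78.3 and 85.7 CPM in tm4b and 21.4, 11.99, 24.4 and 42.7 CPM in tm4a libraries, from 178 and 32 UMIs, without overlap. The log2 fold change was 1.71 ± 0.29 (SE; 1.10 to 2.32; edgeR adjusted p = 0.00483). WT libraries had 27.2, 27.1, 96.3, 38.6, 16.5, 16.3 and 13.3 CPM, so WT replicate 3 lay above all tm4b libraries. Foxc1 was not called in endocardial-like cells (0.47, edgeR adjusted p = 0.151; 0 of 5 members called, 0.675% of genes), nor in valve endothelial-like cells (0.73, adjusted p = 0.139; 0 of 5, 0.406%). Its effect in valve interstitial-like cells minus that in endocardial-like cells was 1.06 on log2(CPM + 5). The per-library difference between these classes lay beyond all tm4a libraries in 3 of the 4 tm4b libraries. These classes were set side by side because Foxc1 had been called in only the first. The value is therefore a description, and whether the effect differs between classes was not tested independently. Endocardial markers in the valve interstitial-like cells, 3 of 11 tested, had no call and a median of 0.43, and summed to 0.0301 to 0.033% of UMIs in tm4b and 0.0257 to 0.0317% in tm4a libraries. Their part in the Foxc1 difference was not tested. Median depth in these cells was 1430 UMIs in tm4b and 1152 in tm4a libraries.

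Zeb2 was higher in tm4b in 2 classes. In fibroblast-like cells, with 8 members tested and 8.62% of genes called, it had 279, 336, 270 and 270 CPM in tm4b and 190, 163, 172 and 176 CPM in tm4a libraries, against 154 to 373 CPM in WT libraries. The log2 fold change was 0.65 ± 0.12 (edgeR adjusted p = 0.00301). In cardiomyocyte-like cells, with 5 members tested and 12.7% of genes called, it had 53.8, 66.2, 57.9 and 59.1 CPM in tm4b and 43.0, 34.9, 30.8 and 44.4 CPM in tm4a libraries (0.51 ± 0.13, edgeR adjusted p = 0.0172), against 28.6 to 64.3 CPM in WT libraries. Neither class had overlap between the alleles. The effect in fibroblast-like cells minus that in valve interstitial-like cells was 0.36 on log2(CPM + 5). The per-library difference lay beyond all tm4a libraries in 2 of the 4 tm4b libraries. These classes too were set side by side because of the call, so the value is a description. The cardiomyocyte call was lost without KO replicate 6 (edgeR adjusted p = 0.0578). Macrophage markers, the class where Zeb2 was highest, summed to 0.00359 to 0.00469% of fibroblast-like UMIs in tm4b and 0.00363 to 0.00817% in tm4a libraries. In cardiomyocyte-like cells they summed to 0.00428 to 0.00632% in tm4b and 0.00415 to 0.00633% in tm4a. The fitted change of Zeb2 was positive in 9 of 9 classes, between 0.26 and 0.92 with a median of 0.46. The KO against WT changes, which use the same KO libraries, were positive in 7 and negative in 2.

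**Figure D4:**
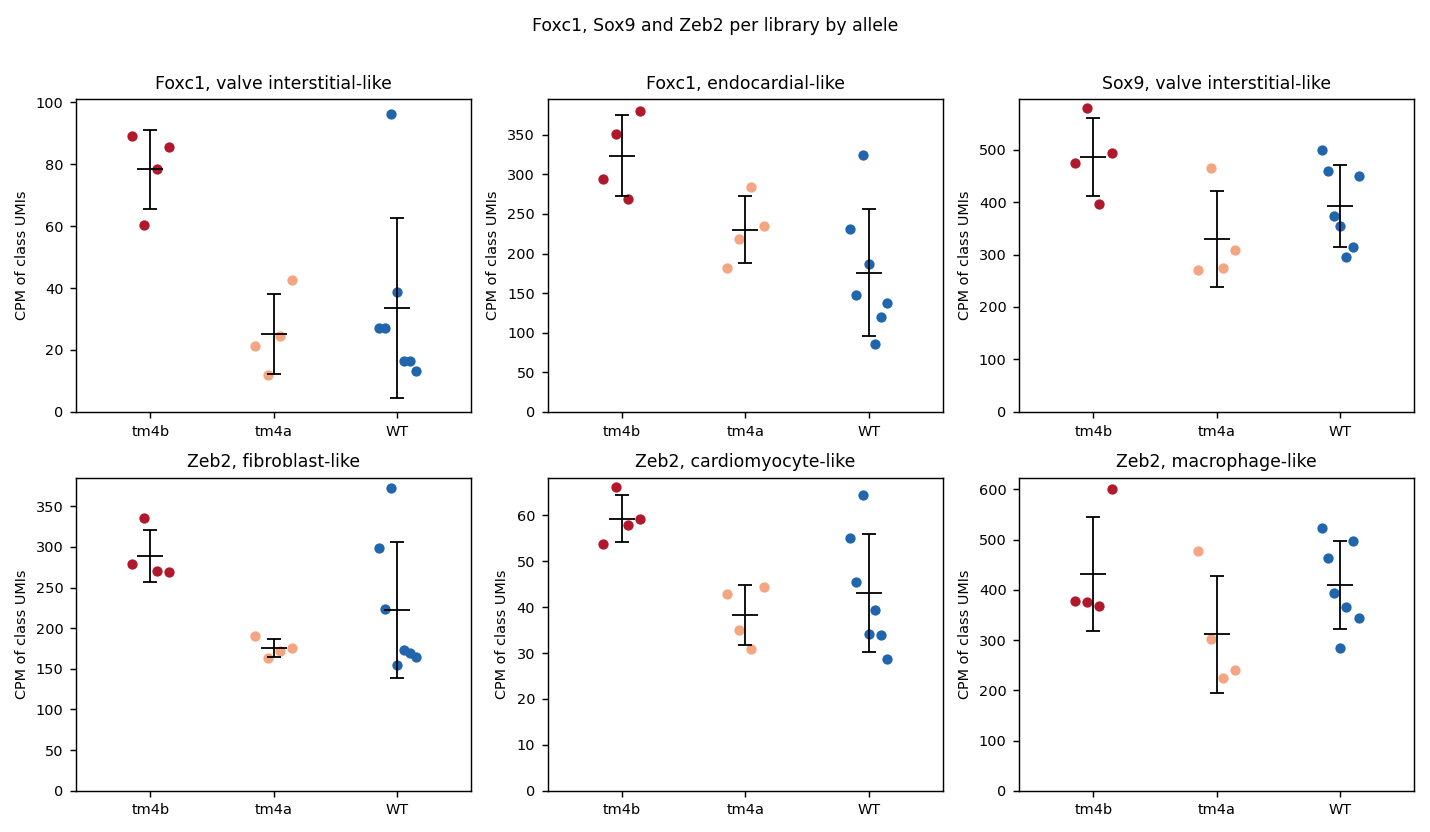
Foxc1, Sox9 and Zeb2 in CPM of class UMIs by library for tm4b, tm4a and WT, with mean and SD. Foxc1 in valve interstitial-like cells lies at 60.4 to 89.1 CPM in tm4b and 11.99 to 42.7 CPM in tm4a, and WT replicate 3 lies at 96.3 CPM.

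In the remaining classes no member was called between alleles. Sox9 in valve interstitial-like cells had a log2 fold change of 0.50 ± 0.17 (edgeR adjusted p = 0.116), and 0.72 (adjusted p = 0.0266) without KO replicate 2. In mural-like cells 0 of 7 members were called by edgeR and 0.654% of genes were, with Zeb2 at 0.76 (adjusted p = 0.0815). In epicardial-like cells 0 of 4 were called and 3% of genes were. Sox9 had -0.06 (-0.63 to 0.52) and Tbx20 -0.01 there. In vascular endothelial-like cells 0 of 3 were called and 1.37% of genes were, and in macrophage-like cells 0 of 1 and 0% of genes. Unadjusted p was under 0.05 for Zeb2 in endocardial-like, mural-like and epicardial-like cells, for Foxc1 in endocardial-like and valve endothelial-like cells, for Sox9 in valve interstitial-like cells and for Msx1 in vascular endothelial-like cells. DESeq2 called 3 of 87 pairs over the classes. When all 15 libraries in 3 groups shared the estimate of spread, no member was called and 2 of 13920 genes were called over all cells, in place of 2071. Under that fit Foxc1 in valve interstitial-like cells had 1.70 (edgeR adjusted p = 0.199).

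**Figure D5:**
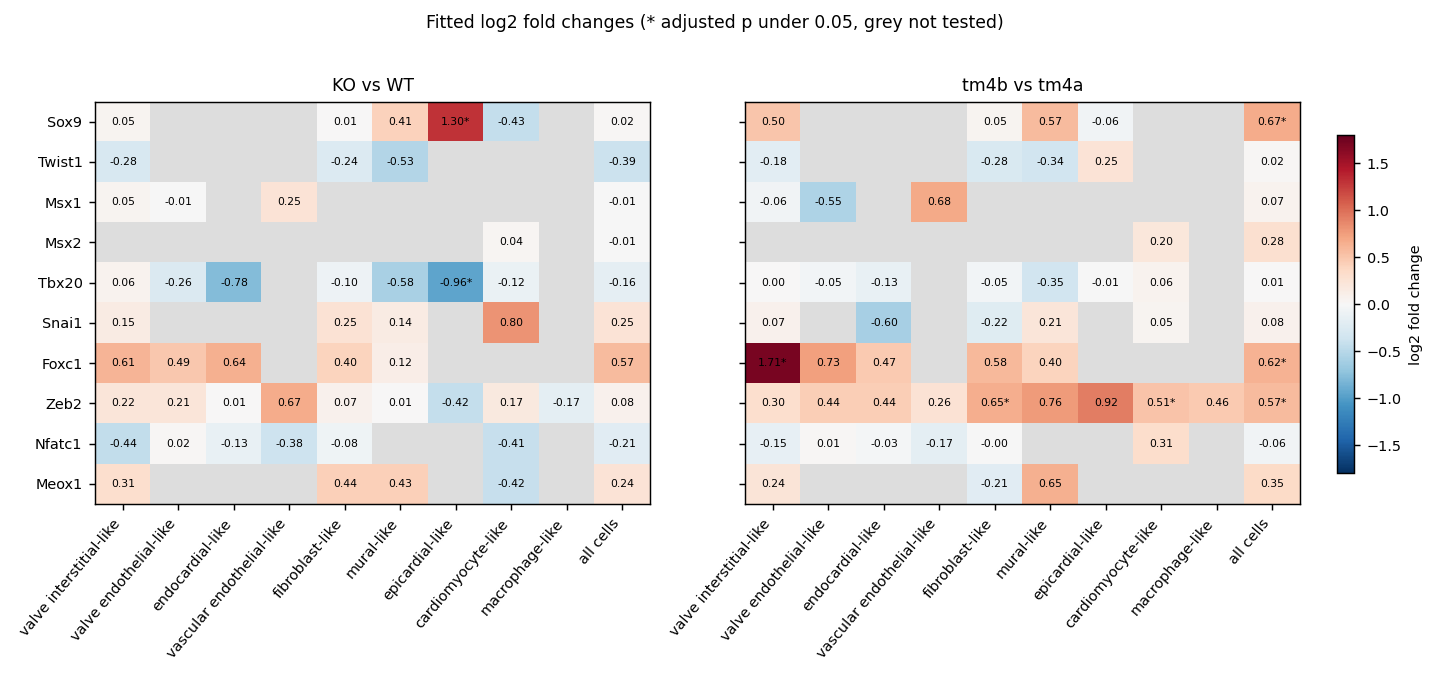
Fitted log2 fold changes of the 10 genes in 9 classes and in all cells, for KO against WT (left) and tm4b against tm4a (right), with red higher in the group named first, grey for pairs not tested and a star at an adjusted p under 0.05. The stars stand at Sox9 (1.30) and Tbx20 (-0.96) in epicardial-like cells on the left, and at Foxc1 (1.71) in valve interstitial-like cells, Zeb2 in fibroblast-like and cardiomyocyte-like cells, and Sox9, Foxc1 and Zeb2 in all cells on the right.

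Genes that work with the 10 factors were followed as 5 lists. They are other valve transcription factors, cartilage-type matrix genes linked to SOX9, genes linked to TWIST1, genes of the calcineurin and NFAT route, and cushion signals. Between KO and WT, edgeR called 0 members of any list over all cells (40, 17, 13, 16 and 32 tested, with 5, 3, 1, 4 and 5 at an unadjusted p under 0.05) and 0 in valve interstitial-like cells. Over all genes 15.9% had such a p over all cells and 0.208% were called. Their medians over all cells were 0.10, -0.20, 0.11, -0.09 and 0.09. Calls came in epicardial-like cells (15, 3, 10, 6 and 12 tested, 0.558% of all genes called). They also came in cardiomyocyte-like cells (32, 10, 12, 16 and 27 tested, 1.39% called). Hbegf, a growth factor that limits cushion growth, was higher in KO in both. Without a call, it had the smallest p of the signals in all cells (0.49) and in endocardial-like (0.80), fibroblast-like (0.75) and macrophage-like cells (1.03). Other signal genes had the smallest p in mural-like, valve interstitial-like, valve endothelial-like and vascular endothelial-like cells. In epicardial-like cells Hbegf had 307 ± 105 CPM in KO and 125 ± 68 CPM in WT libraries (1.30 ± 0.26, edgeR adjusted p = 0.0197). In cardiomyocyte-like cells Hbegf had 87.5 ± 7.71 CPM in KO and 57.8 ± 7.46 CPM in WT libraries (0.58, edgeR adjusted p = 0.0128). Col1a1, a fibrillar collagen, was lower in KO cardiomyocyte-like cells at 25.3 ± 7.77 CPM in KO and 53.0 ± 23.1 CPM in WT libraries (-1.10, edgeR adjusted p = 0.0249). Lower in KO in the same cells were Cdh5, an endothelial cadherin (-1.16, edgeR adjusted p = 0.0217), Mmp2, a matrix protease (-0.92, adjusted p = 0.0249), and Ppp3r1, a calcineurin subunit (-0.61, adjusted p = 0.0456). Markers of other classes were counted beside them. In cardiomyocyte-like cells endocardial markers summed to 0.0034 to 0.00691% of UMIs in KO and 0.00568 to 0.0108% in WT libraries, and fibroblast markers to 0.0152 to 0.0302% in KO and 0.0172 to 0.0435% in WT libraries. Their part in these results was not tested. With flow cell as a covariate 0 genes were called in epicardial-like cells and 0 were called higher in cardiomyocyte-like cells, so both Hbegf calls were lost.

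Between alleles, where 15.3% of all genes were called over all cells, tm4b was higher in 5 of 40 other valve transcription factors, 5 of 17 cartilage-type genes, 5 of 13 TWIST1-linked genes and 9 of 32 signals, and 1 of 16 calcineurin and NFAT genes was higher and 1 lower. Their medians over all cells were 0.13, 0.50, 0.41, 0.22 and 0.20, the last for the calcineurin and NFAT genes. In valve interstitial-like cells alone the medians were 0.13, 0.12, 0.13, 0.38 and 0.19 in the same order. There 29, 12, 9, 23 and 10 genes were tested. Of these, 1, 0, 2, 3 and 0 were called higher in tm4b, and 1 cartilage-type gene was called lower. The part of cell numbers in the medians over all cells was not tested. Cdh11, a cadherin of mesenchyme linked to TWIST1, had 308 ± 15.9 CPM in tm4b and 161 ± 26.9 CPM in tm4a libraries (0.83, edgeR adjusted p = 0.00192). Col9a1, a cartilage collagen, had 56.8 ± 9.79 CPM in tm4b and 33.1 ± 3.61 CPM in tm4a libraries (0.65, edgeR adjusted p = 0.00855). Rcan1, an inhibitor and target of calcineurin signalling, had 77.6 ± 5.93 CPM in tm4b and 107 ± 14.1 CPM in tm4a libraries (-0.59, edgeR adjusted p = 0.0102). In valve interstitial-like cells, where 3.03% of genes were called, Hapln1, a hyaluronan link protein gene, had 255 ± 31 CPM in tm4b and 420 ± 121 CPM in tm4a libraries (-0.76, edgeR adjusted p = 0.0285), and Cdh2 was higher in tm4b (0.85, edgeR adjusted p = 0.0139). When all 15 libraries in 3 groups shared the estimate of spread, 2 genes were called over all cells, both higher in tm4b, and 0 in valve interstitial-like cells, so at most 2 of these list calls over all cells remained and Rcan1 was lost. The lists were chosen with earlier results of these data known, and no list was tested as a set.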

How the data were processed

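The authors deposited a table of UMI counts per gene and cell barcode, whole numbers with no normalization, for 15 Drop-seq libraries of hearts. The submitters' processing notes name bcl2fastq 2.17, Seurat 2.1 and the mm10 build; sources used here do not give the aligner, the counting program or its strand setting. All columns were matched to a sample through the library name in the barcode (0 columns matched none). Library totals were 5477109 to 11340443 UMIs, which limits low genes such as Msx2. Replicates in 1 group differed by more than sampling noise in every pair (lowest chi-square per degree of freedom 5.99 over 49 pairs).

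Cells with at least 300 genes and at most 30% mitochondrial UMIs were kept. Scrublet, run in scanpy, called 128 of 50899 cells (0.251%), under 0.5% in 14 of 15 libraries, so the caller did not work and doublets may remain. Cells were clustered with scanpy 1.11.5 and leidenalg 0.10.2 (2000 variable genes without the 10 genes and Adamts19, 30 components, 20 neighbours, resolution 1) and named from marker lists. Classes with under 10 cells in a library were dropped there. UMI counts were summed per library and class and tested with edgeR 4.0.16 (R 4.3.3; TMM, default low-count filter), with Benjamini-Hochberg adjustment over all genes of a class; DESeq2 1.42.0 was an alternative. The edgeR fit was checked on counts simulated from valve interstitial-like and epicardial-like cells, and the other steps were not checked this way. Levels are CPM; a pseudocount of 5 CPM was added on the log2 scale, and single cells were thinned to 1000 UMIs. Named genes are the 10 members in every class, the 3 genes closest to each over WT class means, and called list genes, at most 6 per list and class. Adamts19, LacZ and the leading genes of classes are named as checks. The members and lists were chosen with earlier results of these data known. RefSeq promoter windows were available for 7 members.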

Additional observations from a re-analysis of the deposited data

Results flagged for a closer look

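In tm4b macrophage-like cells Zeb2 reached 602 CPM in KO replicate 8, apart from the other 3 tm4b libraries. In KO valve interstitial-like cells Meox1 was lowest in KO replicate 4, at 332 CPM, apart from the other 7 KO libraries. These are the 2 of 40 member and group sets in which 1 library stood apart by Dixon's 95% limit, a limit that chance passes in about 1 of 20 sets.

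The KO against WT effect on Sox9 was higher in epicardial-like than in valve interstitial-like cells by 1.23 on the log2 scale, and higher than in fibroblast-like cells by 1.21. The effect on Tbx20 in epicardial-like cells differed by -1.02 from that in valve interstitial-like cells and by -0.80 from that in fibroblast-like cells. It was not set beside endocardial-like and mural-like cells, where Tbx20 was also lower in KO without a call (-0.78 and -0.58). These pairs were chosen because they had been called in epicardial-like cells, so the differences are descriptions, and their cause was not tested.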

How the results depend on the processing

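Among KO against WT results, 2 calls were made (Sox9 and Tbx20 in epicardial-like cells), and this became 0 with flow cell as a covariate, 0 with counts summed per litter, 0 with the replicate block, and 6 without WT replicates 1 to 4. Leaving out 1 library at a time gave 0 (without KO replicate 8) to 4 (without WT replicate 3), and 1 without WT replicate 4. Genes called over all cells moved too, from 28, to 975 without WT replicates 1 to 4, to 403 without WT replicate 3, and to 6 without KO replicate 8. The cause was not tested. Shared replicate numbers do not pair the samples: 1 of 7 pairs correlated above 0.1 (range -0.567 to 0.119) and 0 of 7 WT libraries correlated best with their own number. Between alleles, 6 calls were made, 0 when all 15 libraries in 3 groups shared the spread, and 5 to 7 with 1 library left out. Alleles share no replicate number.

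The direction turned for values near 0 and also for Twist1. Sox9 in valve interstitial-like cells (KO against WT) was -0.0063 per litter and -0.0256 with the replicate block. Twist1 there was -0.28 (-0.76 to 0.19) in the main fit. Its value became 0.0378 with flow cell as a covariate and 0.15 without WT replicates 1 to 4. Nfatc1 in valve endothelial-like cells was -0.0038 with called doublets kept. Between alleles, Tbx20 in valve interstitial-like cells was -0.0203 with the dividing mesenchymal cluster added (chosen after seeing the data), and Nfatc1 in valve endothelial-like cells was -0.0031 with DESeq2 and -0.0669 with called doublets kept. With 1 library left out, KO against WT ranges were -0.0529 to 0.10 for Sox9, -0.0705 to 0.29 for Msx1 and -0.0358 to 0.23 for Tbx20 in valve interstitial-like cells and -0.0632 to 0.0802 for Nfatc1 in valve endothelial-like cells. Between alleles they were -0.35 to 0.13 for Msx1, -0.0663 to 0.0701 for Tbx20, -0.0895 to 0.28 for Snai1 and -0.14 to 0.15 for Nfatc1. Fold changes were recomputed for each gene in its highest class and for called pairs. Of these, 449 kept their direction with no change of call seen, any fit without an adjusted p included. A further 37 turned, 7 became called and 18 lost their call.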
